A study of Homo sapiens with 3 samples.

Results

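The SIRT7-KO library was compared with the control library gene by gene, over the genes with at least 100 reads in either of them. That choice took 10139 of the 22827 genes in the table. Both libraries reached the minimum for 9628 genes, the control alone for 391 and SIRT7-KO alone for 120. RNA of cells labelled Hep3B, a line from a human hepatocellular carcinoma, was sequenced in 1 library for each of 3 genotypes: control, USP39-KO and SIRT7-KO. The labels give no treatment and do not say how the knockouts were made, whether the cells were a pool or a single clone, or what the control cells carried. Library totals lay between 16151522 reads (SIRT7-KO) and 19427940 reads (control).

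SIRT7 is an NAD-dependent deacylase that sits largely in the nucleolus. It is known for promoting transcription of ribosomal RNA genes by RNA polymerase I and for removing an acetyl mark from histone H3 at the promoters of ribosomal protein and other genes. It has also been tied to DNA repair and to stress responses of the mitochondria and the endoplasmic reticulum (ER).

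With 1 library on each side there was no replicate, no test and no p-value, and every value describes these libraries rather than the genotypes. Levels are given as reads or as CPM, the usual read count scaled to a common library size. A log2 ratio is the log2 of SIRT7-KO over control, so that 1 is a doubling, and the range in brackets after it is an exact 95% interval that covers counting error only. USP39-KO counts are given beside the others as a description. Both knockouts are read against the same control library, so a likeness between them is not independent evidence. A gene is called higher or lower when it differed at least 2-fold and its interval excluded no difference. Fewer cells making a transcript and less transcript per cell cannot be told apart in such libraries.

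SIRT7 itself had 984 control reads, 808 in USP39-KO and 608 in SIRT7-KO, or 50.6, 49.1 and 37.3 CPM. It was lowest in the library named for it, at 1.36-fold below the control (1.23 to 1.51), short of the 2-fold rule. Reads summed over a gene do not tell whether its coding sequence was disrupted. Of the other sirtuins, SIRT1 had a log2 ratio of 0.38 (0.30 to 0.46), with 2635 control reads, 2457 in USP39-KO and 2878 in SIRT7-KO. SIRT2, SIRT3, SIRT5 and SIRT6 had log2 ratios of 0.10, 0.02, -0.24 and 0.05, and each interval included 0. SIRT4 had 19 and 32 reads and lay under the minimum.

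The label was set beside marker genes. Of 15 hepatocyte markers, 8 had no read in any library, among them the plasma proteins ALB, APOB and TTR and the fetal liver protein AFP, and 12 had under 10 reads in every library. The liver regulator HNF4A had 113 control reads, 29 in USP39-KO and 7 in SIRT7-KO, and the retinol carrier RBP4 79, 72 and 76. A listed 0 does not by itself show a silent gene, since 7 of 87 cytosolic ribosomal protein genes were also at 0 in the control and SIRT7-KO. Why those genes were at 0 was not tested, and the same need not hold for the hepatocyte markers. Broad epithelial markers were mixed, with 37684, 24379 and 26167 reads of KRT8 in control, USP39-KO and SIRT7-KO, many reads also of KRT7 and KRT18, and no read of KRT19. The epithelial surface protein EPCAM had 37, 21 and 7 reads and E-cadherin CDH1 24, 28 and 8. Summed marker levels in control, USP39-KO and SIRT7-KO were 1.13, 0.729 and 0.919 CPM for 6 endothelial genes, 4.12, 4.37 and 5.64 for 7 immune genes and 118, 140 and 115 for 10 stromal genes. PTPRC and CD68, which mark immune cells, and KDR, of endothelium, were at 0 throughout. Most liver markers thus had few reads or none, so the libraries are called by their labels and no other cell type is named.

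The bulk of the transcriptome was close between the libraries. The median log2 ratio was -0.01, and 88.8% of the genes lay within 1.5-fold. At least 2-fold higher in SIRT7-KO were 136 genes (1.34% of those compared), and 200 were lower (1.97%), or 3.31% either way. At least 4-fold higher were 18 genes and at least 4-fold lower 64, but the minimum on raw reads let in more genes through the deeper control library (391) than through SIRT7-KO (120). With at least 1000 reads in either library the 4-fold counts were 3 and 6. Many called genes were low in 1 of the libraries, since 55 of the 136 and 118 of the 200 passed the minimum in 1 library only. At the edge of the minimum, 10 of the 124 genes less than 10 reads above it were called (8.06%), and 21 of the 130 genes just outside it, with a larger count of 90 to 99 (16.2%).

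**Figure D1:**
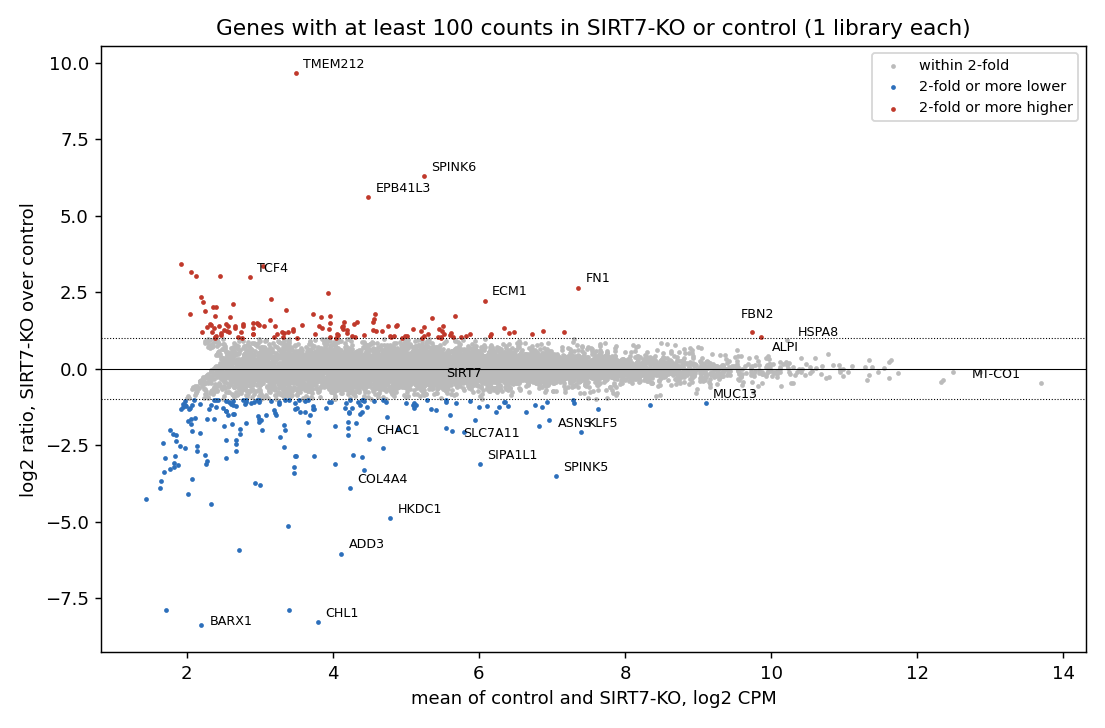
Mean level of each gene in the control and SIRT7-KO (x axis, log2 CPM) against its log2 ratio (y axis), 1 point per gene; red and blue points are at least 2-fold higher or lower. Most points lie within the dotted 2-fold lines, and 64 lie beyond 4-fold below and 18 above, or 6 and 3 among genes with at least 1000 reads.

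The gene with the largest ratio was TMEM212, a membrane protein gene, which had 367 reads in SIRT7-KO and 0 in both the control and USP39-KO. It was at least 146-fold higher against a floor of 3 reads for the library at 0. SPINK6, a secreted inhibitor of kallikrein proteases, had 18 control reads, 56 in USP39-KO and 1223 in SIRT7-KO (78.5-fold higher, 51.0 to 137). EPB41L3, which links membrane proteins to the spectrin and actin skeleton, had 17, 94 and 718 reads (48.8-fold higher, 31.2 to 86.8). These 3 were at or near the bottom of the scale in the control and well above it in SIRT7-KO.

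Further genes with high ratios belonged to varied families. The ferric reductase STEAP4 had 12 control reads, 58 in USP39-KO and 113 in SIRT7-KO (log2 ratio 3.43, 2.63 to 4.48). PRUNE2 had 28, 322 and 246 reads, with log2 ratios of 3.36 in SIRT7-KO and 3.74 in USP39-KO. The ubiquitin ligase PJA1 (16 and 123 reads), the kinase PRKCB (18 and 127), the Golgi glycosyltransferase MGAT4A (23 and 160) and the basic helix-loop-helix factor TCF4 (31 and 212) were all about as far apart, from 8.02-fold higher for TCF4 to 8.88-fold for PJA1. The endocytic adaptor STON1 had 2.34 and the kinase ALPK2 2.20.

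Among the lowest, BARX1, a homeobox factor, had 178 control reads, 4 in USP39-KO and 0 in SIRT7-KO (at least 49.8-fold lower). The scramblase and channel relative ANO3 had 128, 145 and 0 reads (at least 35.8-fold lower), so it was lost from SIRT7-KO and not from USP39-KO. CHL1, a neural cell adhesion molecule, had 540, 28 and 1 reads, which left its ratio poorly bounded (log2 ratio -8.28, -14.13 to -6.34). The adducin ADD3, which caps actin filaments at the membrane, had 665, 127 and 8 reads (66.1-fold lower, 35.2 to 162). RYR1, a calcium release channel, had 251, 221 and 3 reads (log2 ratio -5.93, -8.42 to -4.57). BARX1, CHL1 and ADD3 counts were below the control in each knockout library, and RYR1 and ANO3 counts in USP39-KO were near the control.

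Other genes with the lowest ratios were EPS8L3 (396 control reads and 9 in SIRT7-KO), the factor DRGX (188 and 7), the carboxypeptidase-like CPVL (149 and 7), FAM171A1 (101 and 4), the ER-shaping protein REEP1 (291 and 17) and the rootletin relative CROCC2 (276 and 17). Their log2 ratios ran from -5.14 for EPS8L3 to -3.73 for CROCC2. In USP39-KO the same genes had 34, 50, 67, 142, 111 and 200 reads, in that order, so FAM171A1 was above its control count there.

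Counting error is smallest for genes with at least 1000 reads in either library, of which there were 4758. Of these, 25 were higher (0.525%) and 34 lower (0.715%), or 1.24% either way, and 94.3% lay within 1.5-fold. Fibronectin FN1, an adhesive matrix protein, had 871 control reads, 813 in USP39-KO and 4621 in SIRT7-KO (6.31-fold higher, 5.87 to 6.80). ECM1, another matrix protein, had 464, 393 and 1819 reads (4.66-fold higher, 4.21 to 5.18). Both stood at the control level in USP39-KO. The heme-binding nuclear receptor NR1D1 had 386, 336 and 1018 reads (log2 ratio 1.65, 1.48 to 1.82). Next came the cyclin-dependent kinase CDK18 (1.40), the exchange factor DNMBP (1.34), the deubiquitinase OTUD1 (1.29), FOS (1.23) and SNAI1 (1.23).

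Of the well-counted genes that were lower, SPINK5, a secreted inhibitor of serine proteases, had 4729 control reads, 3237 in USP39-KO and 350 in SIRT7-KO (11.3-fold lower, 10.2 to 12.7). It lies 65505 bases from SPINK6 in a cluster of related inhibitors, and the pair differed in opposite directions. HKDC1, a hexokinase relative, had 1036, 198 and 29 reads (29.6-fold lower, 20.8 to 45.0). SIPA1L1, a GTPase-activating protein for Rap, had 2255, 2198 and 217 reads (8.71-fold lower, 7.59 to 10.1), at the control level in USP39-KO. The factor KLF5 had 5280, 1681 and 1060 reads (4.18-fold lower, 3.92 to 4.47). ANXA3, an annexin, had a log2 ratio of -2.07, the LIM protein FHL1 -2.04, the glucose transporter SLC2A3 -1.93 and the kinase anchor AKAP12 -1.66.

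Gene lists were then read, each by its called members and its median, beside the 3.31% called and the median of -0.01 over all genes. The list with the lowest median among the 23 drawn in the plot of gene lists was that of ATF4, the leucine zipper factor that induces amino acid synthesis, uptake and tRNA charging genes when the integrated stress response is on. Of 36 measured genes 9 were lower and 1 higher (27.8% called), 29 lay below 0 and the median was -0.64. CHAC1, which degrades glutathione, had 730 control reads, 633 in USP39-KO and 124 in SIRT7-KO (log2 ratio -2.30, -2.59 to -2.03). The cystine importer SLC7A11 had 3461, 3321 and 788 reads (3.69-fold lower, 3.41 to 3.99), and asparagine synthetase ASNS 3693, 4480 and 970 (3.20-fold lower, 2.98 to 3.44). In all 3 genes the control and USP39-KO were close or USP39-KO was higher, and SIRT7-KO stood apart.

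The stanniocalcin STC2 (-1.40), the pseudokinase TRIB3 (-1.25), the cysteine-forming enzyme CTH (-1.17), mitochondrial PCK2 (-1.10), the serine phosphatase PSPH (-1.08) and the glycine transporter SLC6A9 (-1.01) completed the lower genes. SLC6A9 sat at the edge of the rule, with -0.99 under plain library totals. The member that was higher was DDR2, a collagen receptor kinase (51 and 120 reads, log2 ratio 1.48). ATF4 itself had 7112 control reads, 6741 in USP39-KO and 5532 in SIRT7-KO (-0.11, -0.16 to -0.06). SLC7A5, the member with the most reads, had 0.15, and DDIT4 had 0.49, so the list did not move as one.

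The ATF4 genes are read through a CCAAT-enhancer and ATF composite element, written as TGATGNAA. It was searched on both strands in the 250 bases before the RefSeq start site, where 3.19% of 27305 promoters hold it, and 99 of the 8248 promoters of genes compared here. Of 29 measured list members with a promoter entry, 3 hold it: ASNS, CHAC1 and ATF3. The windows of CHAC1 (GRCh38.p14, chr15:40953221-40953470, plus strand) and ASNS (chr7:97872409-97872658, minus strand) are shown because these genes are among the lowest of the list, with the match in capitals. It begins 209 bases before the start in CHAC1, on the reverse strand, and 68 before it in ASNS. Of 8 called list members with an entry, 2 hold a match in this window.
CHAC1: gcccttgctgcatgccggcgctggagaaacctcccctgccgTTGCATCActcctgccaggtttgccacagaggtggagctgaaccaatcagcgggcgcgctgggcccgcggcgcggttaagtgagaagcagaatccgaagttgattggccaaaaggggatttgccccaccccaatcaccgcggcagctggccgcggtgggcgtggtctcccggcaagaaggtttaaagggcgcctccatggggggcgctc
ASNS: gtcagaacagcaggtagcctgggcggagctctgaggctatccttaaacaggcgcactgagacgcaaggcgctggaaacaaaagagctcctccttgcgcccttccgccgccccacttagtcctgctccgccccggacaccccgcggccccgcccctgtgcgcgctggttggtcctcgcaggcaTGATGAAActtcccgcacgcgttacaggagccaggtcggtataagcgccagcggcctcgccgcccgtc

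Cytosolic tRNA synthetases, which charge tRNAs with amino acids, showed smaller differences of the same sign. None of 19 was called, but 16 lay below 0 and the median was -0.28. WARS1, for tryptophan, had 5876 control reads, 6308 in USP39-KO and 2724 in SIRT7-KO (-0.86, -0.92 to -0.79), and GARS1, for glycine, 12415, 15234 and 5990 (-0.80, -0.84 to -0.76). At the other end EPRS1 had 0.08 and FARSB 0.16. In the wider list of serine, one-carbon and amino acid enzymes 4 of 31 were lower (median -0.17): ASNS, CTH, PSPH and the proline dehydrogenase PRODH (-1.21). Of these, ASNS, CTH and PSPH were already counted on the ATF4 list. PHGDH, the first enzyme of serine synthesis, had -0.85 with 8877 and 4139 reads (1.80-fold lower). Of 25 amino acid transporters 3 were lower and 1 higher (median -0.07), the glutamate transporters SLC1A1 (-2.34) and SLC1A2 (1.58) going opposite ways. The other lower transporters, SLC7A11 and SLC6A9, are on the ATF4 list too.

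**Figure D2:**
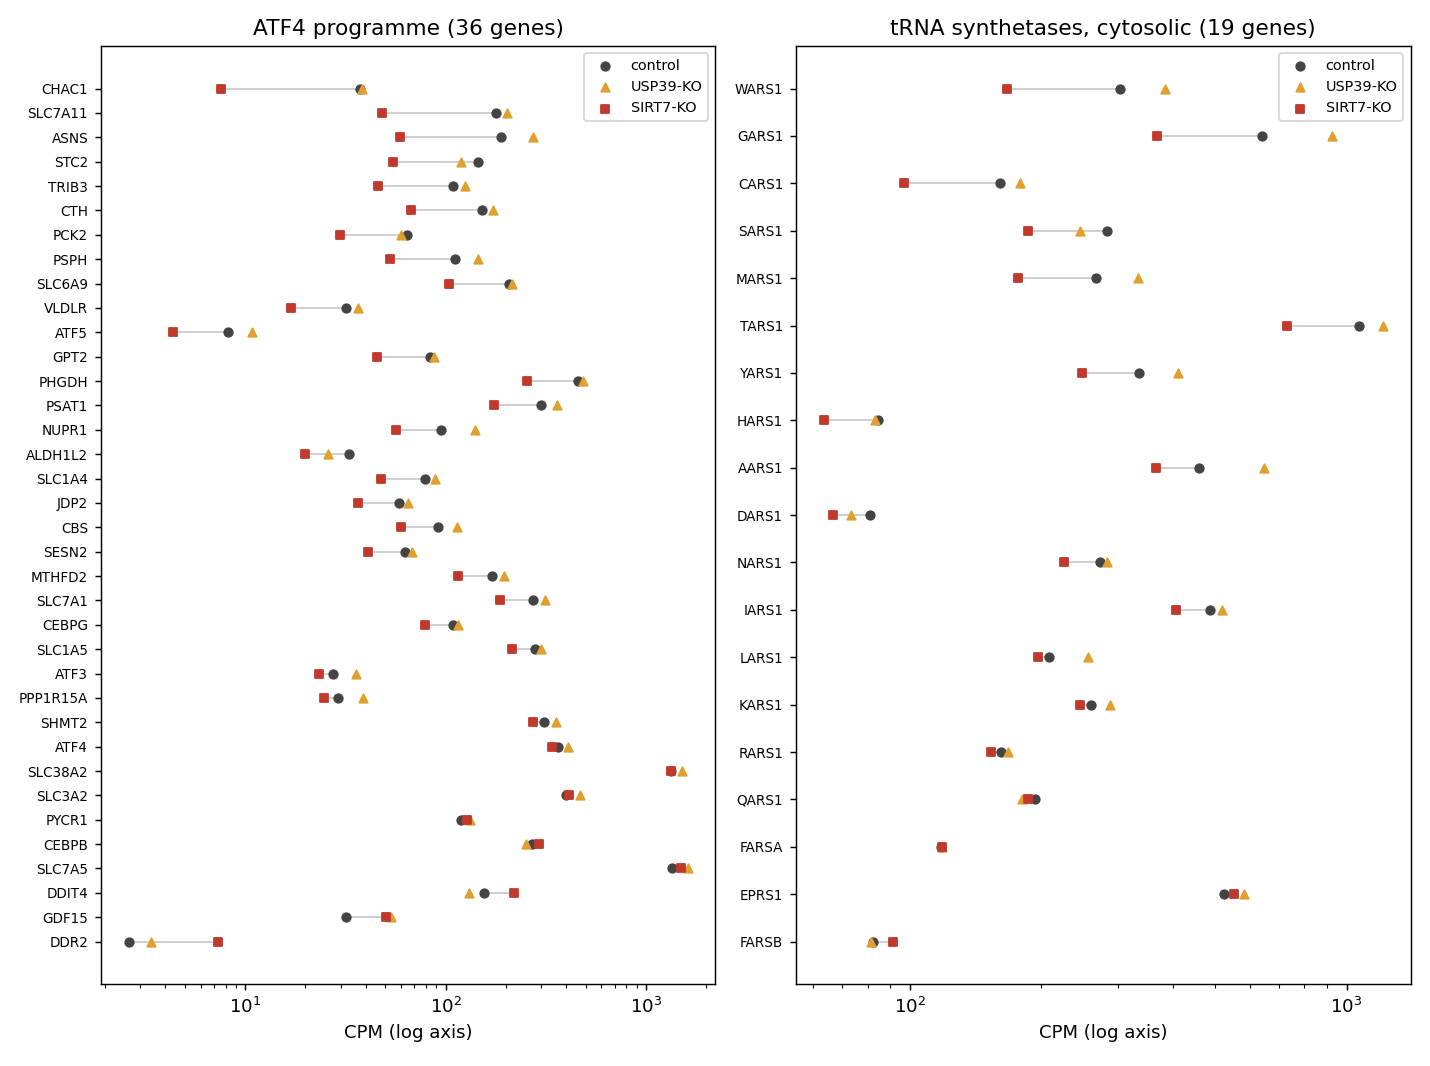
Level in CPM (x axis, log scale) of each measured ATF4 programme gene (left, 36 genes) and cytosolic tRNA synthetase (right, 19 genes) in the control (dark circles), USP39-KO (orange triangles) and SIRT7-KO (red squares), with genes in order of the log2 ratio of SIRT7-KO. The red squares lie left of the dark circles for 29 of 36 and 16 of 19 genes.

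Heat shock proteins and co-chaperones, which fold proteins in the cytosol and are induced by HSF1, had 23 of 26 members above 0 and a median of 0.28. A single member was called (3.85%, near the 3.31% of all genes). It was DNAJB4 (870 control reads, 924 in USP39-KO and 1609 in SIRT7-KO, log2 ratio 1.14, 1.02 to 1.26). HSPA8, the constitutive HSP70 chaperone, had 15694, 13878 and 25627 reads (0.96, 0.93 to 0.99), and its gain of 763 CPM was the largest of any gene. HSF2 (0.82), DNAJB1 (0.78), BAG3 (0.76), HSPB1 (0.67) and HSPH1 (0.65) followed, whereas FKBP5, a co-chaperone of steroid receptors, had -0.83. HSP90AA1 and HSP90AB1 had 0.22 and 0.29. Of these genes HSPA8 and DNAJB4 came close to a doubling or passed it.

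A heat shock element, searched as GAANNTTC on both strands, is in the 250-base window of 5.85% of all promoters, of 3.81% of those of the genes compared, and of 6 of 24 list members with an entry. DNAJB4, the only called list member, has an entry and holds no match in this window. HSPA8, which was not called, holds 2, beginning 230 and 50 bases before its start. Its window (chr11:123062137-123062386, minus strand) is shown as that of the gene with the largest gain.
HSPA8: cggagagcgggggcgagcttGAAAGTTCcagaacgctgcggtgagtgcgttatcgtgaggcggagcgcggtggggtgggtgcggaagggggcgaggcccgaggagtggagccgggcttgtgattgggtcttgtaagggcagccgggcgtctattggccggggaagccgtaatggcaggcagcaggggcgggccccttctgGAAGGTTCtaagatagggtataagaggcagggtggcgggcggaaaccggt

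ER chaperones and genes of the unfolded-protein response had none of 29 called and a median of 0.06. Within the list the HSP70 relative HSPA5 had 28386 control reads, 24073 in USP39-KO and 33209 in SIRT7-KO (0.48, 0.46 to 0.50). HSP90B1 had 0.36, CRELD2 0.77 and SDF2L1 0.84. The ER stress sensor ERN1 had -0.76, with 546, 705 and 270 reads, and the lectin CANX -0.03.

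Growth arrest and death receptor genes included 2 that were higher. The cell cycle inhibitor CDKN1A had 1289 control reads, 1156 in USP39-KO and 2372 in SIRT7-KO (1.13, 1.03 to 1.23), and it was the only called gene among 14 measured cyclins, CDK inhibitors and RB family genes (median 0.01). The death receptor FAS had 188, 128 and 412 reads (1.38, 1.13 to 1.64), and 9 of 10 measured TNF receptors lay above 0, 2 of them called higher (median 0.31). Both genes were near or below the control in USP39-KO. The pro-apoptotic BAX had 0.61 and PMAIP1 -0.05, whereas HRK, also pro-apoptotic, was lower (113, 80 and 38 reads, -1.31). Of 26 measured apoptosis regulators, BCL2 family members and caspases, 2 were lower (HRK and BIRC3), 0 higher, and the median was -0.02.

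Immediate early genes, switched on within minutes of growth factor or stress signals, had 6 of 28 called (21.4%), all higher, and a median of 0.32. EGR1, a zinc finger factor, had 186 control reads, 304 in USP39-KO and 418 in SIRT7-KO (2.67-fold higher, 2.25 to 3.20). FOSB had 158, 177 and 374 reads (log2 ratio 1.49), JUN 411, 244 and 897 (1.38), FOS 1368, 2235 and 2697 (1.23) and ZFP36, which destabilizes messages, 343, 307 and 611 (1.08). ARC had 53, 61 and 120 reads (1.42). JUN was thus below the control in USP39-KO while FOS and EGR1 were above it. MYC (-0.24) and DUSP1 (-0.08) were not among the higher genes.

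Serum response factor acts on such genes through the CArG box, which on either strand is in the 250-base window of 1.14% of all promoters, of 0.921% of those of the genes compared, and of 2 of 21 list members with an entry, EGR1 and SRF. Of 5 called list members with an entry, EGR1 alone holds a match. The EGR1 window (chr5:138465229-138465478, plus strand) has 2, beginning 105 and 83 bases before the start.
EGR1: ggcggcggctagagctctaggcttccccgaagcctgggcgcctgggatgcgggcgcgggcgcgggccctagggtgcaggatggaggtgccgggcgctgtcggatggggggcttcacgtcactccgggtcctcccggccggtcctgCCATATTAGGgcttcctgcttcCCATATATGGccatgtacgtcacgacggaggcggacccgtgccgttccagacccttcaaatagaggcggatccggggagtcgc

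NF-kB subunits and genes that NF-kB induces had 4 of 21 lower, none higher, and a median of -0.30. RELB, a subunit of the noncanonical pathway, had 587 control reads, 427 in USP39-KO and 110 in SIRT7-KO (-2.16, -2.47 to -1.87). The cytokine IL32 had 1403, 725 and 416 reads (2.83-fold lower), the apoptosis inhibitor BIRC3 61.5, 44.4 and 24.0 CPM (log2 ratio -1.35) and the cytokine IL6 163, 75 and 66 reads (-1.05). NFKB2 had -0.57, TNFAIP3 -0.53, NFKB1 -0.38 and RELA -0.08. In each of the 4 called genes the USP39-KO level in CPM lay between the other two.

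Wnt feedback genes had 2 of 15 lower and a median of -0.35. RNF43, a ligase that removes Wnt receptors, had 123 control reads, 27 in USP39-KO and 14 in SIRT7-KO (-2.84, -3.80 to -2.08), and the scaffold AXIN2 561, 258 and 228 (-1.05, -1.28 to -0.82). Both counts in USP39-KO were below the control as well. Beta-catenin, CTNNB1, had 0.08.

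Epithelial junction and polarity genes had 3 of 22 lower and none higher (median -0.14), and genes of the epithelial to mesenchymal transition 4 of 23 higher and none lower (median 0.31). The polarity protein CRB3 had 215 control reads, 112 in USP39-KO and 28 in SIRT7-KO (-2.67). It overlaps DENND1C on the other strand, which was lower as well (-2.52), and reads of such a pair cannot be told apart without strand. The claudin CLDN1 had 379, 445 and 96 reads (-1.72) and PATJ 556, 311 and 231 (-1.01). On the mesenchymal list FN1, TCF4 and SNAI1 were among the higher genes. The repressor SNAI1 had 523, 606 and 1029 reads (1.23, 1.07 to 1.38). Vimentin VIM had 0.11, ZEB1 -0.01, and on the epithelial list the desmosomal protein DSP had 0.09.

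Glycolysis and hypoxia genes had 25 of 33 members above 0 and a median of 0.22, with 1 higher and 2 lower. The carbonic anhydrase CA12 was higher (385, 512 and 796 reads in control, USP39-KO and SIRT7-KO, log2 ratio 1.30), and HKDC1 and SLC2A3 were lower. The hypoxia-induced genes ADM and NDRG1 had 0.92 and 0.69, and hexokinase HK2 0.74. In USP39-KO these last 3 had -0.86, -0.76 and -0.27. ENO1, with the most reads of the list, had 0.04. Among fatty acid genes, the activating enzyme ACSL1 had 384, 878 and 44 reads (-2.86, -3.36 to -2.42), with the USP39-KO count above the control. The coactivator PPARGC1A had -1.11, and the desaturase SCD 0.35.

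Membrane skeleton genes ran from -6.05 in ADD3 to 5.61 in EPB41L3. Besides these, the spectrin SPTBN4 was higher (87, 148 and 147 reads in control, USP39-KO and SIRT7-KO, 2.01-fold higher) and close between the knockouts. The remaining 14 of 17 measured members were not called, and the list median was -0.06. Protein kinase C isoforms also split, with PRKCB higher (3.03) and PRKCZ lower (-1.08, 700, 619 and 278 reads).

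Lists tied to the known roles of SIRT7 held no called gene. Over all genes compared 3.31% were called, and 1.24% of those with at least 1000 reads. At these shares lists of such size would hold few called genes or none. None of 42 measured genes described as its targets or partners was called, and their median was -0.08. RNA polymerase I and rRNA processing genes had none of 78 called, 54 below 0 and a median of -0.12, with the polymerase subunits POLR1A at -0.30 and POLR1B at -0.26. Cytosolic ribosomal proteins had none of 76 called and a median of -0.14, 62 of them below 0. S-phase genes had none of 49 called, 41 below 0 and a median of -0.16, whereas genes of G2 and mitosis had a median of 0.04 over 50.

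All 13 protein genes of the mitochondrial genome were below 0 and none was called (median -0.33). MT-CO1, a subunit of cytochrome oxidase, had 15374 CPM in the control, 15995 in USP39-KO cells and 11069 in SIRT7-KO (-0.47), while MT-CO2 and MT-ND4 had -0.10 each. These genes are cut from shared precursor transcripts, so they are not independent. Nuclear genes for the respiratory chain had a median of -0.02 over 59, and mitochondrial ribosomal proteins -0.09 over 68.

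**Figure D3:**
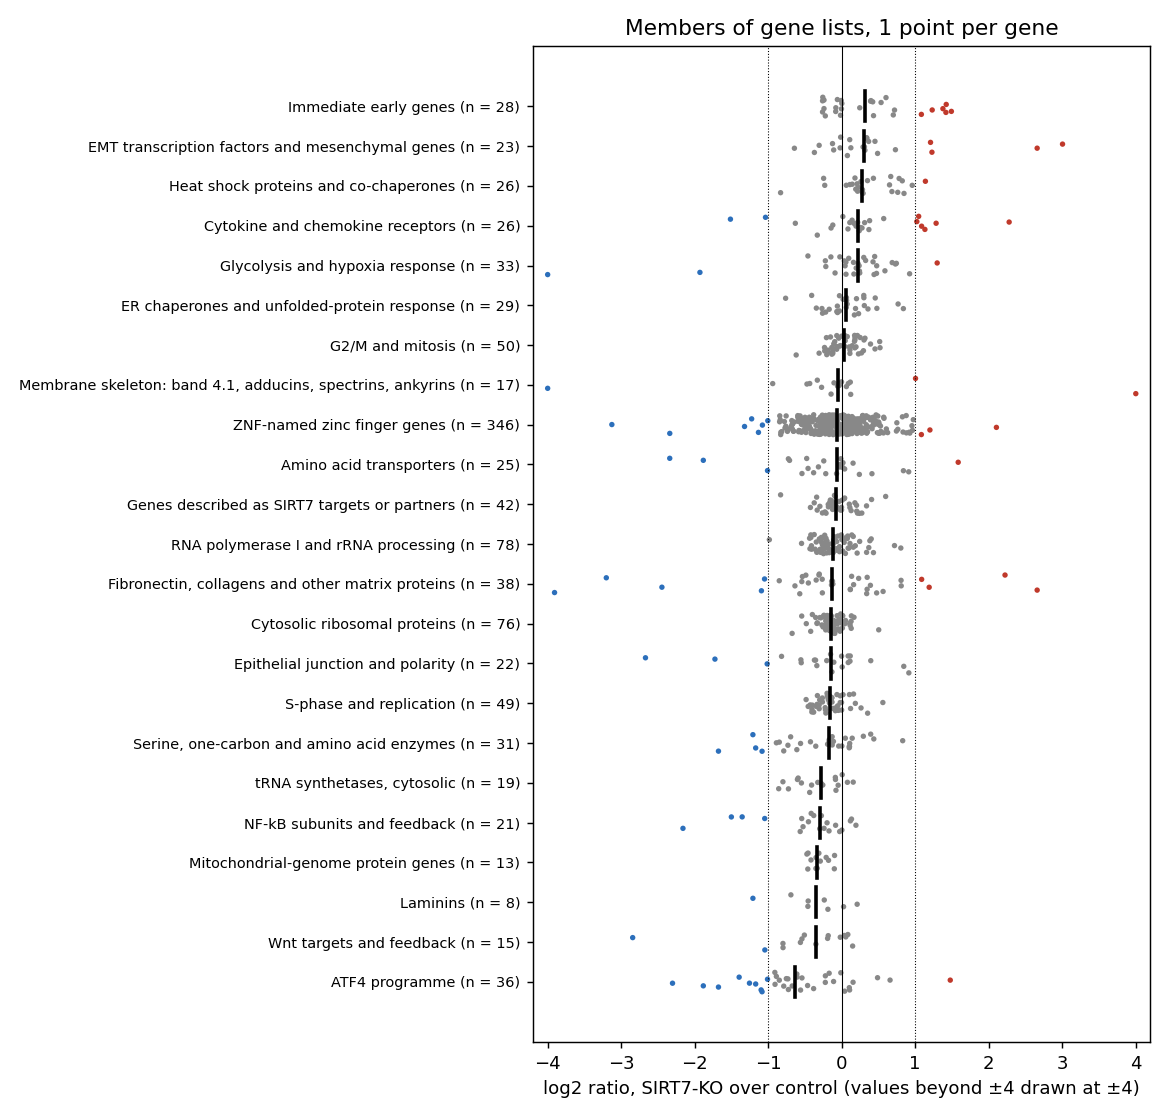
Log2 ratio of SIRT7-KO over control (x axis) for each member of 23 gene lists, 1 point per gene, with red and blue points called higher or lower and a black bar at the list median; values beyond 4 in size are drawn at 4. Medians of the lists drawn run from -0.64 for the ATF4 programme to 0.32 for immediate early genes.

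By class, 37 of 678 measured transcription factors were called (5.46%), 28 of 167 secreted proteins (16.8%) and 52 of 562 surface and membrane proteins (9.25%), against 2.52% of the 8733 genes in none of them. The higher and lower counts were 16 and 21, 11 and 17, and 26 and 26. Median log2 ratios were -0.02, 0.00 and 0.05. The share called depends on read count, at 3.31% of all genes compared and 1.24% of those with at least 1000 reads. The classes were not matched for level, so their shares may differ for that reason alone, which was not tested.

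Among transcription factors, the higher genes with the largest ratios were TCF4, ZNF831 (45, 89 and 164 reads in control, USP39-KO and SIRT7-KO, log2 ratio 2.10), NR1D1 and TOX3 (176, 51 and 431 reads, 1.54), then FOSB, EGR1, JUN, FOS, SNAI1 and ZNF862 (79, 95 and 153 reads). TOX3 was far below the control in USP39-KO. The helix-loop-helix inhibitor ID2 (1.17) and the Notch target HEY1 (1.06) were also higher. Basic leucine zipper factors had 5 of 39 higher and none lower, namely FOS, FOSB, JUN, NFE2 (1.11) and DBP (1.04).

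BARX1 and DRGX led the lower factors, followed by HNF4A (-3.68), the thyroid hormone receptor THRB (115, 9 and 9 reads, -3.36), MECOM (761, 230 and 64 reads, -3.31) and ZFP3 (-3.13). ZNF704 (-2.34), KLF5 (-2.06), HOXB7 (-1.41) and the thyroid forkhead factor FOXE1 (525, 453 and 167 reads, -1.40) came next. HOXB7 and HOXB9 (-1.15) overlap in the annotation, so their reads may be shared. Of 346 ZNF-named genes 3 were higher and 7 lower (2.89%), close to the share of all genes.

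Of 38 secreted matrix genes 4 were higher and 5 lower (23.7% called). FBN2, a fibrillin of elastic microfibrils, had 10104 control reads, 8184 in USP39-KO and 19356 in SIRT7-KO (2.28-fold higher, 2.23 to 2.34), beside FN1, ECM1 and the thrombospondin THBS3 (1.09). Among the lower genes were the basement membrane collagens COL4A4 (686, 332 and 38 reads, -3.91) and COL4A3 (210, 92 and 32, -2.45), which lie head to head and share a promoter region, and COL25A1 (-3.20) and COL27A1 (-1.09). Laminins, also of basement membranes, had a median of -0.35 over 8, with LAMA3 lower (-1.21). COL1A1 had -0.13.

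The class also holds ligands and proteases that can stay in the membrane. Its other higher genes included the complement protease C1R (63, 43 and 140 reads, 1.40), the serpin SERPINB5 (73, 18 and 162 reads, 1.39), the decoy receptor TNFRSF11B (70, 4 and 136 reads, 2.30-fold higher), the plasminogen activator PLAT (1.13) and the costimulatory ligand TNFSF9 (1.10). TNFRSF11B and SERPINB5 were well below the control in USP39-KO. Lower were the activin antagonist FST (380, 93 and 44 reads, -2.85), the transmembrane semaphorin SEMA6A (168, 155 and 17, -3.02), the membrane-type metalloprotease MMP24 (-2.08), IL32, STC2 and the ErbB ligand NRG1 (156, 55 and 54, -1.27). The mucin MUC13, which spans the membrane, had 14684, 11506 and 5639 reads (-1.13, -1.17 to -1.08).

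On the surface, cytokine and chemokine receptors had 6 of 26 higher and 2 lower (30.8% called). The interleukin receptors IL1R1 (59, 82 and 242 reads, 2.28), IL7R (91, 32 and 168, 1.13) and IL6R (238, 210 and 425, 1.09) and the erythropoietin receptor EPOR (207, 151 and 424, 1.28) were higher. LEPR (1.02) and IL22RA1 (1.05) completed the higher receptors. CSF2RA (171, 185 and 50, -1.51) and IL20RB (-1.04) were lower. IL20RB sits at the edge of the rule, at -0.99 with a prior of 5 reads. None of 10 integrins and none of 18 tetraspanins was called. At the 3.31% called over all genes compared, lists of such size would hold few called genes or none.

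Transporters and channels made up many of the remaining surface genes. The cholesterol exporter ABCA1 had 224 control reads, 87 in USP39-KO and 584 in SIRT7-KO (1.63, 1.41 to 1.86), and the drug exporter ABCB1 148, 44 and 19 (-2.68). The insulin-responsive glucose transporter SLC2A4 was higher (47, 26 and 131 reads, 1.72), SLC2A3 lower (1443, 951 and 318). SLC12A8 (1.73) was higher and the sodium, potassium and chloride cotransporter SLC12A2 lower (593, 259 and 178, -1.48). Of 11 genes for potassium channels and proteins that bind them, 3 were lower and none higher. These were the channels KCNJ18 (254, 164 and 53 reads) and KCNQ1 (925, 826 and 344, -1.17) and the channel-interacting protein KCNIP3 (-1.63). KCNJ18 has a near-identical copy, so its count is uncertain.

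The lipid receptor S1PR3 (40, 23 and 138 reads, 2.02), the adhesion protein NEGR1 (202, 113 and 489, 1.52) and TMEM156 (1.51) were higher. The ephrin receptor EPHB2 (200, 14 and 22, -2.91), the nicotinic receptor subunit CHRNA4 (112, 9 and 12, -2.92) and TLCD4 (-2.23) were lower. TLCD4 had 310, 224 and 55 reads. The pairs of structurally related genes that went opposite ways (SLC2A4 and SLC2A3, SLC1A2 and SLC1A1, SLC12A8 and SLC12A2) were picked out after their values were seen.

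**Figure D4:**
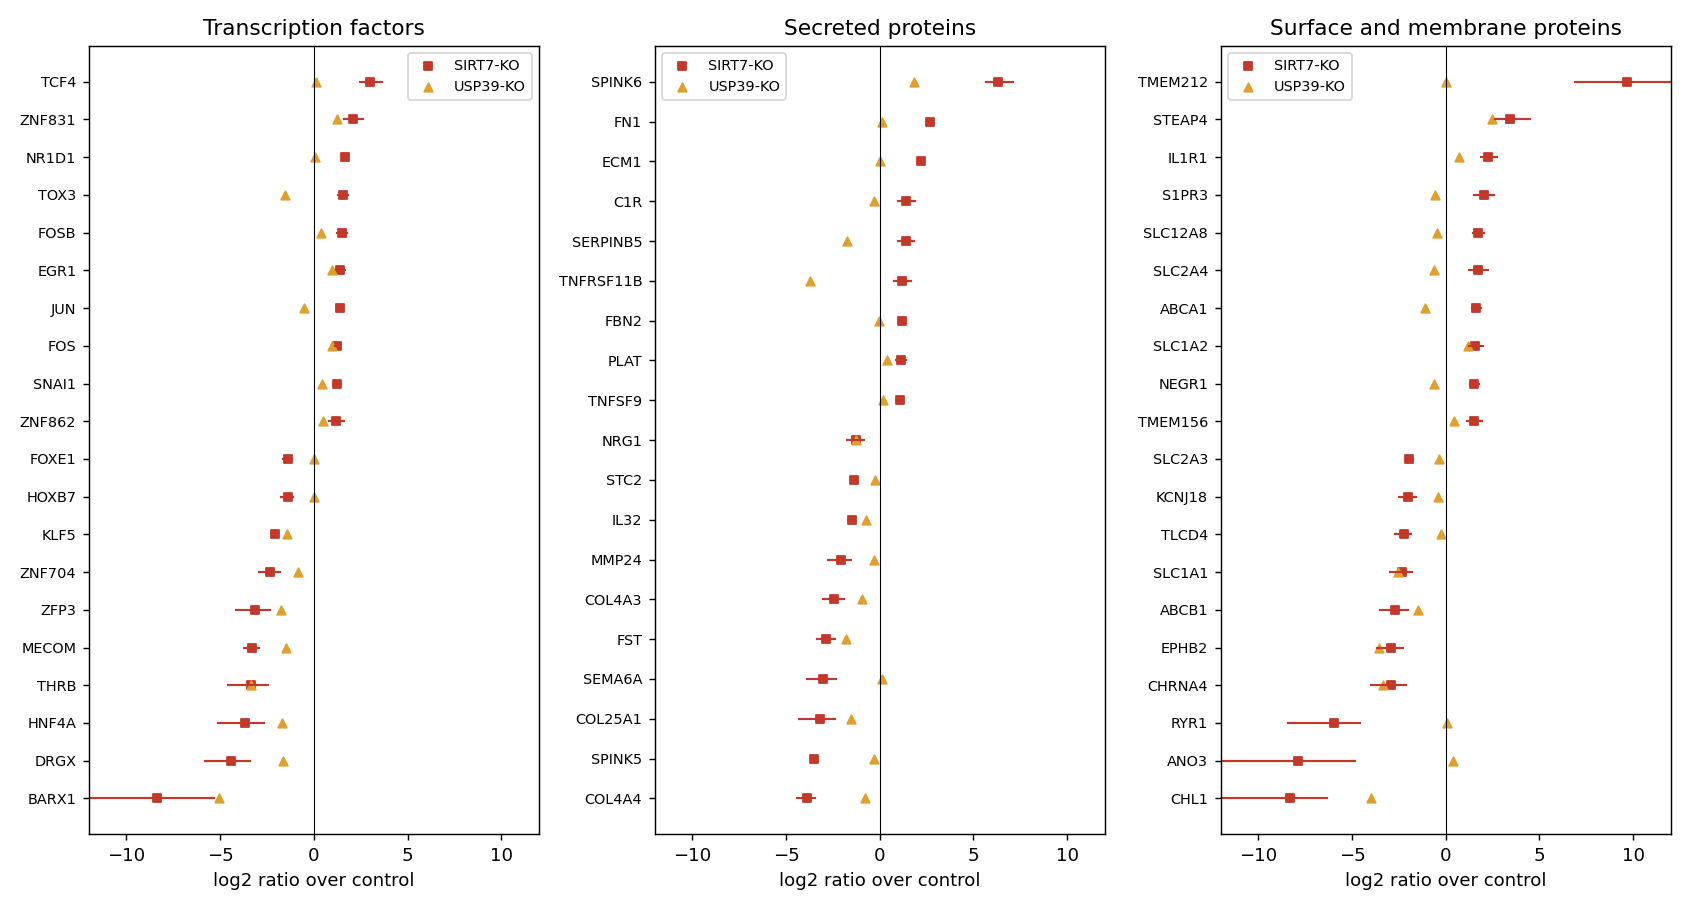
Log2 ratio over control (x axis) of SIRT7-KO (red squares, with the exact 95% counting interval, cut at 12 in size) and USP39-KO (orange triangles) for the highest and lowest called transcription factors, secreted proteins and surface or membrane proteins, up to 10 each way. Both ratios share the control library. TOX3, SERPINB5, TNFRSF11B and ABCA1 are among several genes, JUN and NEGR1 also, that lie on opposite sides of 0 in the knockouts.

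Read mass was moved mostly by abundant transcripts that differed less than 2-fold. Gains over all genes summed to 68786 CPM and losses to -79063 CPM, and called genes made up 6.12% of the gains and 6.37% of the losses. Mitochondrial-genome genes held 11.8% of the loss, led by MT-CO1 (-4305 CPM), and their share of all reads was 4.85% in the control, 5.29% in USP39-KO cells and 3.96% in SIRT7-KO. The translation factor EEF1A1 had -1291 CPM, and the transferrin receptor TFRC, with 21018 control reads, 23939 in USP39-KO and 10418 in SIRT7-KO, had -443 CPM (log2 ratio -0.76). Dynein heavy chain DYNC1H1 had -428 CPM.

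The gains were led by HSPA8, FBN2 (666 CPM) and ALPI (653 CPM). ALPI, an alkaline phosphatase anchored in the membrane and known from intestine, had 11755 control reads, 10095 in USP39-KO and 20524 in SIRT7-KO (2.08-fold higher, 2.03 to 2.13). Other genes of its kind can share its reads. Beta-actin ACTB (635 CPM), HSPA5, HSP90AB1, HSP90AA1, SCD, HSP90B1 and the actin-binding TAGLN2 (305 CPM) completed the leading 10, of which 5 are chaperones. The heat shock list as a whole held 4.03% of the gain.

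**Figure D5:**
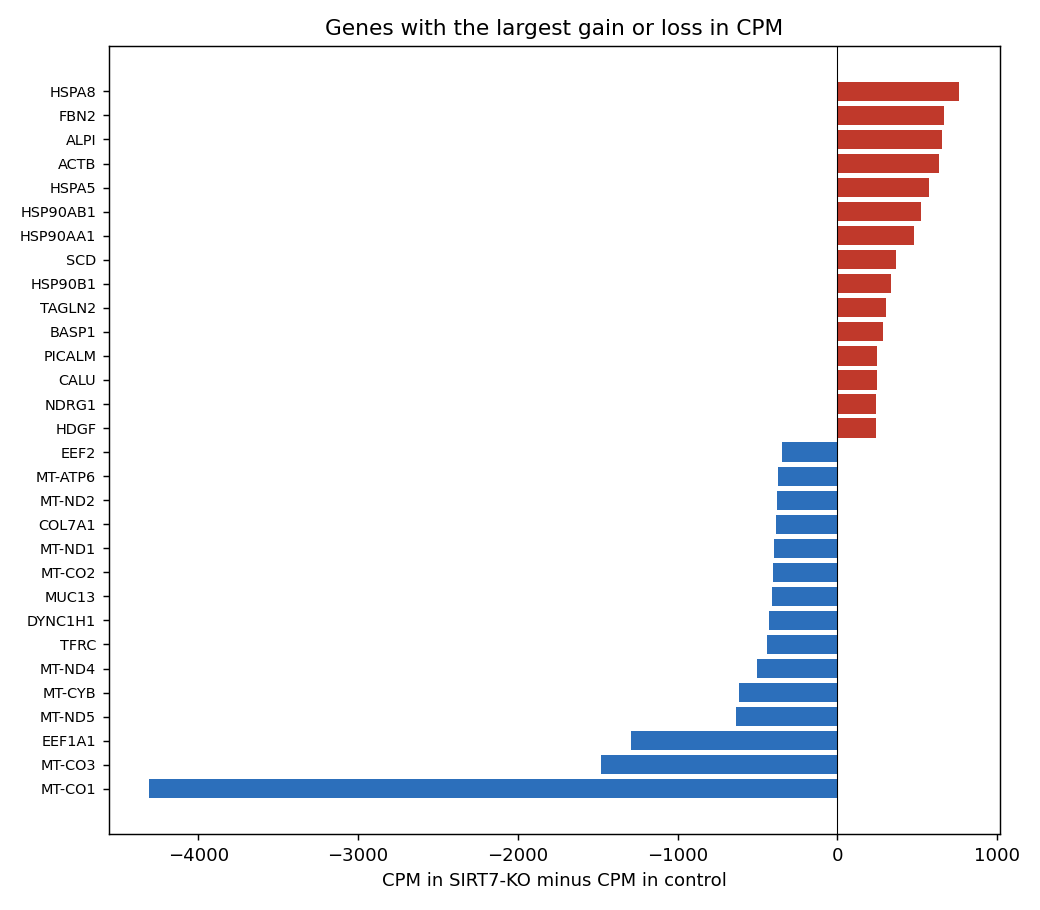
Difference in CPM, SIRT7-KO minus control (x axis), for the 15 genes with the largest gain (red) and the 15 with the largest loss (blue). MT-CO1 has the longest bar (-4305 CPM), and the gains are led by HSPA8 (763 CPM).

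Called genes were found on every autosome and on X. Median log2 ratios per chromosome ran from -0.09 on chromosome 14 (332 genes) to 0.07 on chromosome 1 (1078 genes). The share of genes above 0 ran from 38.9% on chromosome 14 to 59.2% on chromosomes 1 and 7, where 51.4% of all genes compared were below 0. Chromosome 4 had the most one-sided count, with 1 of 360 genes higher (0.278%) and 15 lower (4.17%). Over all genes compared these shares were 1.34% and 1.97%. Why chromosomes differed was not tested.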

How the data were processed

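Total RNA was taken from cells labelled Hep3B with Trizol and TruSeq RNA libraries were made from it, per the labels. The authors deposited whole read counts for each gene beside its length, per the file headers. FPKM values were also deposited by the authors, equal the counts scaled by length and library total, and were not used. The sources used here name no aligner, counter, genome build, annotation or use of strand. Genes with near-identical copies or overlapping neighbours are therefore uncertain. Symbols were matched by Ensembl identifier to GENCODE 29 (19649 of 22827 identifiers), and identifiers with no symbol held 0.350% to 0.365% of reads.

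TMM factors from edgeR 4.0.16 (R 4.3.3) over the 3 libraries gave effective library sizes, and CPM and log2 ratios (prior of 0.5 reads, scaled) were computed from them with SciPy 1.17.1. Intervals are exact conditional binomial (Clopper-Pearson) intervals at 95%. No molecular identifiers are named, so intervals and the floor of 3 reads (0.154, 0.182 and 0.184 CPM in control, USP39-KO and SIRT7-KO) cover counting error only. The libraries differed by far more than counting error, with a chi-square per degree of freedom of 37.0 over the genes compared, and the spread between cultures is unknown. The steps were tested on simulated counts.

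The genes compared and the gene lists were chosen with earlier results of these data known. Named genes are the sirtuins, the 15 with the highest lower bound and 15 with the lowest upper bound, the 10 highest and lowest with at least 1000 reads, the 10 largest gains and losses in CPM, the 10 highest and lowest called in each class, up to 4 called each way and the member with the most reads in each described list, and all cell type markers. Other list members were picked with their values known. USP39-KO shares its control with SIRT7-KO, so its values stand beside the others as a description, with no test, overlap count or correlation. Promoter windows are from RefSeq (GRCh38.p14). No column was left without a library. Some listed genes and 1 gene list are not reported here.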

Additional observations from a re-analysis of the deposited data

How the results depend on the processing

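Each comparison rests on 1 library a side, so no library could be left out and no replicate error exists. No paired analysis was possible because each group has 1 library. The split of 136 higher and 200 lower genes stayed within 1.5 times under plain library totals, DESeq2 1.42.0 size factors, TMM over the control and SIRT7-KO, totals without mitochondrial-genome genes, a minimum of 100 on the mean and a prior of 5 reads. It moved with the count minimum, to 441 higher and 545 lower with none, 381 and 511 with 10 reads and 50 and 68 with 500, and to 75 and 127 when the whole interval had to lie beyond 2-fold. The minimum of 500 reads left 0% of laminins and 0% of cytokine and chemokine receptors called. The stricter interval left 0% of laminins, 11.5% of those receptors and 1.16% of ZNF-named genes, which reached 5.44% with no minimum and 5.87% with 10 reads. Fewer or more genes near the minimum enter under these settings by construction. Among the 24 lists recomputed, chromosomes 1 and 14 and SIRT7, no median or ratio moved beyond its counting or rank interval under a scaling, and none of 291 named genes reversed. The scalings moved the median of all genes to between -0.02 and 0.01 on the log2 scale. SLC6A9, PATJ, NFIB, SERPINB8, SPTBN4, IL20RB and S100A2 lost their call under a scaling or the prior of 5. When the whole interval had to lie beyond 2-fold, 50 of the 291 lost it, among them IL6, AXIN2, ARC, ZFP36, LAMA3, IL6R, IL7R, PSPH, PLAT, TNFSF9, TNFRSF11B, SERPINB5 and PRKCZ.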

Other observations

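Genes of the circadian clock were read after NR1D1 was seen among the higher genes, so the list was chosen on these values. Of 17 measured clock genes 2 were higher and 1 lower, with a median of 0.17 on the log2 scale, where 3.31% of all genes compared were called. The 2 higher genes were NR1D1, which prompted the list, and DBP, already counted among the leucine zipper factors. The leucine zipper factor DBP had 198 control reads, 133 in USP39-KO and 343 in SIRT7-KO (log2 ratio 1.04, 0.79 to 1.30). The period gene PER1 had 2073, 1504 and 3424 reads (0.98, 0.90 to 1.05), just short of a doubling, whereas PER2 and PER3 had 0.05 and -0.09. NR1D1, DBP and PER1 were close to or below the control in USP39-KO and above it in SIRT7-KO. BMAL2, a partner of CLOCK, was lower (373, 246 and 125 reads, -1.32), and BMAL1 and CLOCK had 0.11 and 0.17. The labels do not give the time of harvest.

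Called protein-coding genes lying within 100 kb of each other in GENCODE 29 formed 11 pairs among 329 genes, 8 with the same direction and 3 with opposite ones. Such pairs were not counted over all genes compared, so these counts have no share to be set beside and are only a description. The same-direction pairs include HOXB7 with HOXB9 and CRB3 with DENND1C, which overlap and may share reads. The 3 opposite pairs were SPINK5 and SPINK6, SLC12A2 and FBN2, and DENND1C and TNFSF9. Among the others, AHRR, a repressor of the aryl hydrocarbon receptor, and the sodium and proton exchanger SLC9A3 on chromosome 5 had log2 ratios of -1.19 and -1.03. On chromosome 2 MAB21L4, CROCC2 and SNED1 had -2.36, -3.73 and -1.21 in a row. The redox regulator TXNIP and LIX1L, which lies 34434 bases from it, were higher (1.05 and 1.46).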
